A study of Mus musculus with 8 samples.

Results

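The nuclear-encoded genes of the mitochondrial respiratory chain and its ATP synthase were examined in induced germinal center B cells (iGBs) with and without Prmt5. Members were taken by gene symbol, as every gene of the table named Nduf (a, b, c, s or v), Sdha to Sdhd, Uqcr, Cox4 to Cox8 or Atp5, leaving out names marked as pseudogenes. The rule found 93 of 39017 genes, of which 44 belonged to complex I, 4 to complex II, 8 to complex III, 20 to complex IV and 17 to complex V. Both groups were splenic B cells of C57BL6/J mice carrying Cγ1-cre, a Cre recombinase expressed once the immunoglobulin γ1 constant region is transcribed. The 4 Prmt5-null mice were also Prmt5 F/F, so that Prmt5 was deleted during activation, and the 4 control mice carried Cγ1-cre alone. All cells grew on 40LB feeders, a fibroblast line that displays CD40L and secretes BAFF, with IL-4 at 1 ng/mL, and were separated from the feeders by elutriation at day 4. Each library came from 1 mouse and was made from total RNA depleted of ribosomal RNA. Age and sex of the mice were not given in the labels.

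The respiratory chain carries electrons from NADH and succinate to oxygen. Complex I (NADH dehydrogenase) and complex II (succinate dehydrogenase) pass electrons to coenzyme Q, complex III passes them on to cytochrome c, and complex IV (cytochrome c oxidase) reduces oxygen to water. Complexes I, III and IV pump protons, and complex V, the ATP synthase, uses the gradient to make ATP. Most subunits are encoded in the nucleus, a few core subunits of complexes I, III, IV and V are encoded by mitochondrial DNA, and assembly factors put the parts together without remaining in the finished enzyme. Prmt5 is the arginine methyltransferase that makes most symmetric dimethylarginine, a mark carried by spliceosomal proteins among others.

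Sequences are shown first for 3 of the 4 members with a deposited splicing event, because the values given for exon usage refer to these bases. They were read from GENCODE M21 transcripts on GRCm38 and are written 5′ to 3′ on the gene's own strand. For Ndufs7 and Atp5l, capitals mark the alternative exon and the 15 lower-case bases at either end belong to the neighbouring exons. For Ndufv1, capitals mark the 10 bases added when the upstream of a pair of acceptor sites is used, an exon form that GENCODE lists only in transcripts marked for nonsense-mediated decay. The alternative exons of Ndufs7 and Atp5l are coding.
Ndufs7 (exon chr10:80253074-80253157, plus strand): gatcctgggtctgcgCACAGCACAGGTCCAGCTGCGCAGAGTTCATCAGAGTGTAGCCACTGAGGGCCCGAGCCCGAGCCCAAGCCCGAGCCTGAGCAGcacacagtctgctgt
Atp5l (exon chr9:44914651-44914811, minus strand): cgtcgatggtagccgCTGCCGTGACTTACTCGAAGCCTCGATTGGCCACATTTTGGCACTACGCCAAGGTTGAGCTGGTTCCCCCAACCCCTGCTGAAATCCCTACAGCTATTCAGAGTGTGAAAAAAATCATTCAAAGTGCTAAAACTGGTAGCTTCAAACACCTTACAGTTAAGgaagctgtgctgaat
Ndufv1 (exon start chr19:4009960-4010019, minus strand): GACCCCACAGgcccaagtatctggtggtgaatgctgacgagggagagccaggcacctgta

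Prmt5 itself was checked first. Its normalized count, the number of reads divided by the library's size factor, was 1538 ± 436 (SD, n = 4) in Prmt5-null and 11774 ± 908 (n = 4) in control iGBs. The groups did not overlap (exact permutation test, two-sided, p = 0.0286, the smallest that 4 against 4 libraries can give). Libraries held 42752293 to 47174851 reads on genes in Prmt5-null and 36731721 to 50366174 in control iGBs. B cell markers were abundant in every library (summed normalized counts 147135 to 177101), and T cell markers summed to at most 16.7. Of the 6 B cell markers, 3 had positive and 3 negative changes, and 1 passed the test, Cd79a, a B cell receptor subunit that was lower in Prmt5-null iGBs. The 4 germinal center markers summed to 24704 to 25299 in Prmt5-null and 18636 to 23642 in control libraries without overlap, with Fas higher and S1pr2 lower. The 4 plasma cell markers summed to 23630.5 to 31162 in Prmt5-null and 29919 to 45643 in control libraries, and 2 of the 4 (Prdm1 and Xbp1) passed as lower. The 10 fibroblast markers summed to 7161 to 11903 in Prmt5-null and 4715 to 8190 in control libraries, and 3 of the 9 tested (Col1a2, Col3a1 and Sparc) passed as higher. The 4 listed myeloid markers found in the table summed to 171 to 295 in Prmt5-null and 104 to 215 in control libraries, and 1 of the 3 tested (Emr1) passed as higher. The part of other cells or of B cell stages in the differences below was not tested, and in bulk RNA fewer cells of a type cannot be told apart from less RNA per cell.

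The respiratory chain genes were close in level between the genotypes. Of the 88 members that averaged 10 or more normalized counts over the libraries, 4 (4.55%) passed an adjusted p below 0.05 in limma with Benjamini-Hochberg adjustment over 16250 genes. The background was 13.8% of all genes tested, 6.51% higher and 7.33% lower in Prmt5-null iGBs. Ndufab1 and Uqcrfs1 were higher, and Ndufaf1 and Cox6a2 were lower. On the recovered reads edgeR called the same 4 members, and DESeq2 called these with Cox7a2l, Ndufaf6 and Ndufb6, so that neither tool called a gene of complex II or V. Cox6a2 alone also passed a 1.5-fold limit, against 6.48% of all genes. An unadjusted p below 0.05 was reached by 20 of 88 members, 11 higher and 9 lower, against 29.3% of all genes. The libraries of the 2 genotypes did not overlap for 7 members, 6 higher and 1 lower in Prmt5-null, against backgrounds of 9.67% and 10.2% of all genes (19.8% in either direction).

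The precision of these estimates bounded most changes. The 95% interval of the change lay within 1.5-fold in either direction for 79 of 88 members (89.8%). The same held for 57.4% of all genes tested. Among genes averaging 1000 or more normalized counts, it held for 68 of 70 members (97.1%) and for 86.6% of all genes. The median log2 fold change, Prmt5-null minus control on the log2(normalized count + 1) scale, was 0.06 over the 88 members and 0.00 over all genes tested. By complex the median was 0.04 for complex I, -0.04 for complex II, 0.07 for complex III, 0.10 for complex IV and 0.04 for complex V.

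**Figure D1:**
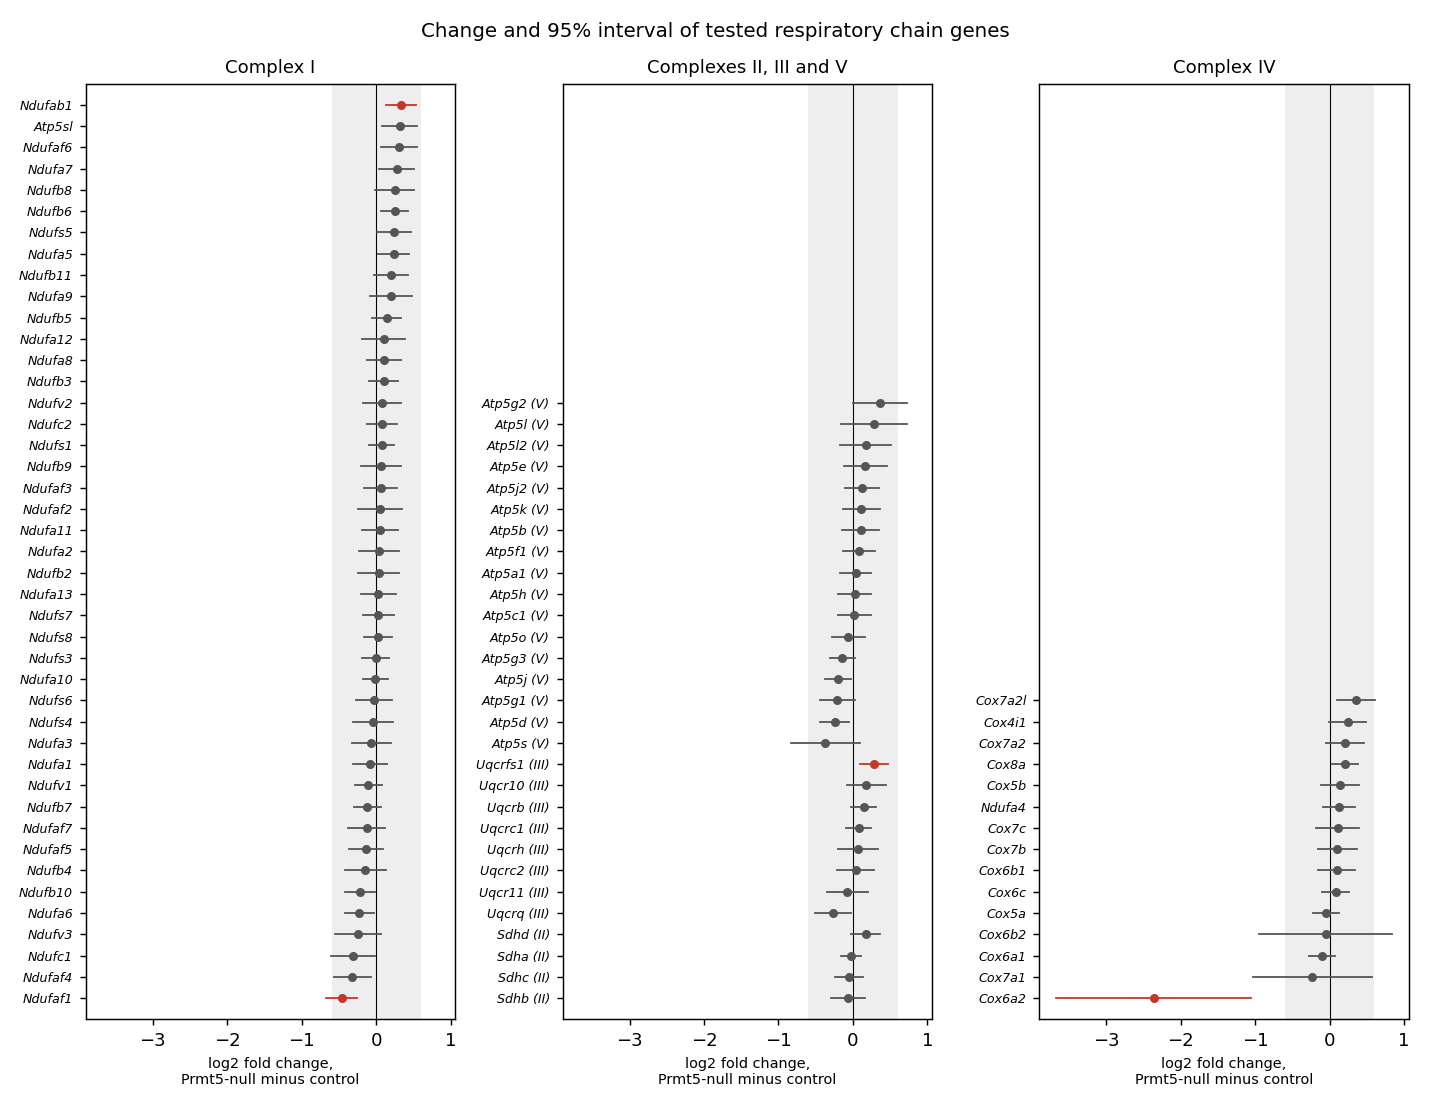
Log2 fold change (Prmt5-null minus control, x axis) of tested respiratory chain genes, with points for the limma estimate, bars for its 95% interval, red for adjusted p below 0.05 and a grey band for 1.5-fold in either direction. The 4 red genes are Ndufab1, Ndufaf1, Uqcrfs1 and Cox6a2, and the intervals of most genes lie within the band.

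Library Prmt5-null 10770 stood apart. The normalized counts of the 93 members summed to 582789 there, against 436491 to 485112 in the other 3 Prmt5-null and 432278 to 497963 in the 4 control libraries. Its members deviated from their means over the libraries by a median of 0.26 on the log2 scale and those of the other libraries by -0.14 to 0.09. The shift was present in each complex, from 0.23 in complex II to 0.34 in complex III. With it, the median coefficient of variation of the members was 13.8% in Prmt5-null and 7.88% in control iGBs. Without it, the median change of the members was -0.03 and 6 passed the test, 1 higher (Ndufab1) and 5 lower (Cox6a2, Ndufa6, Ndufaf1, Ndufb10 and Ndufc1), against 14.6% of all genes in the same fit.

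The 13 mitochondrially encoded subunits had their lowest sum in the same library. They summed to 149099 in Prmt5-null 10770, to 230182, 349837 and 290789 in Prmt5-null 10617, 10618 and 10771, and to 258916 to 380940 in control libraries. Each of the 13 had a lower mean log2 level in Prmt5-null iGBs (median change -0.37), the groups overlapped for all of them and none passed in limma, edgeR or DESeq2. At an unadjusted limma p below 0.05, 1 of the 13 was lower. Over all genes tested 19.8% did not overlap, 13.8% passed in limma and 29.3% had such an unadjusted p.

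**Figure D2:**
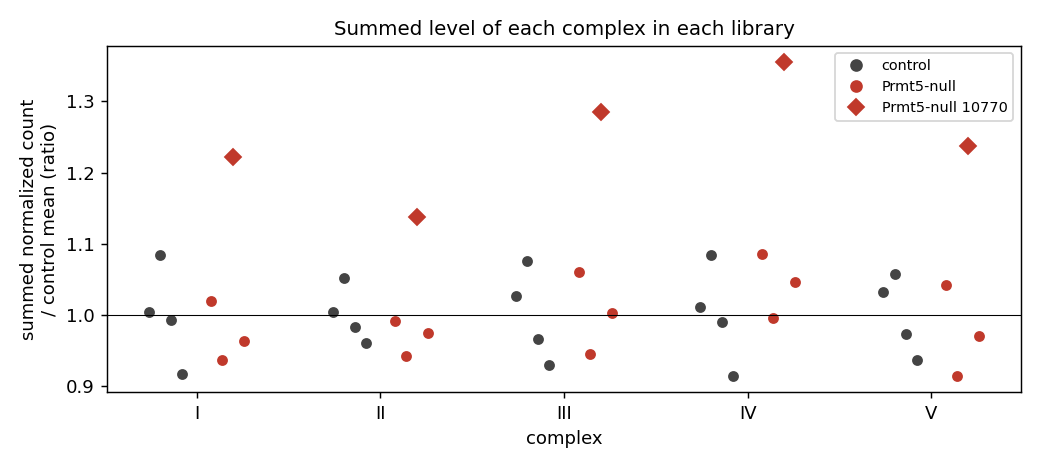
Summed normalized count of the members of each complex in each library, divided by the control mean of that complex (y axis, ratio), with grey points for control, red points for Prmt5-null and red diamonds for Prmt5-null 10770. The diamond is the highest point in each complex, and the other Prmt5-null libraries lie among or near the control libraries.

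Levels spanned a wide range between members. Values per kb depend on the length used, which counts every base annotated as exon in any transcript of a gene. It was 6883 bases for Ndufab1 and 6443 for Atp5l, against 419 for Ndufa1. A long annotation lowers the value, so ranks of genes and complexes per kb are uncertain. Per kilobase of annotated exon, the highest control means were those of F1 subunits of ATP synthase, Atp5a1 at 18332 ± 689 (SD, n = 4) and Atp5b at 17002 ± 949 normalized counts per kb. Cox8a at 11438 ± 700 and Cox4i1 at 11293 ± 830 followed, and the last 2 differed by less than either SD. The median per kb over subunits found in most tissues was 1689 in complex I (36 genes), 2522 in complex II (4), 3882 in complex III (8), 5601 in complex IV (11) and 2736 in complex V (15). Reads of members with near-identical copies are uncertain: for Atp5l, Atp5o, Ndufs3, Atp5h, Atp5f1 and Uqcrb, at least 50% of the longest coding transcript matched another gene at 97% identity, and Atp5l had the lowest level of these subunits, 23.6 per kb.

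**Figure D3:**
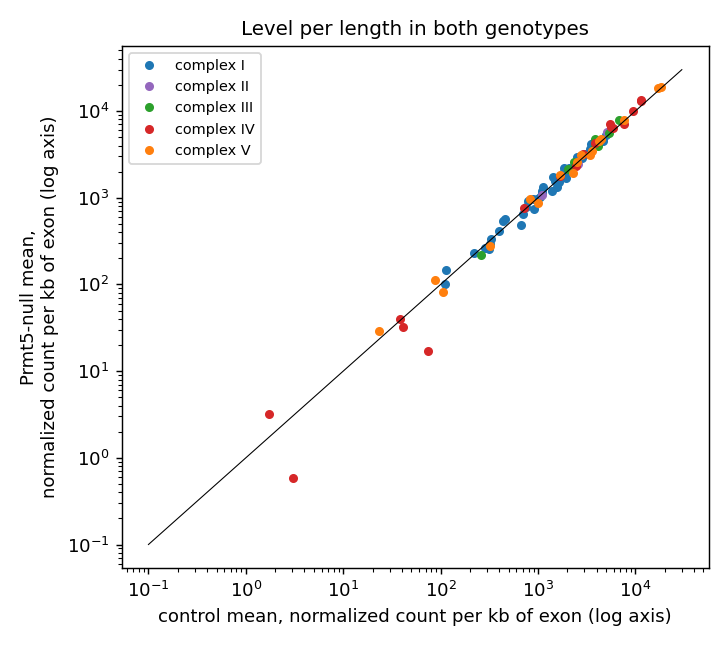
Mean level of each member per kb of exon in control (x axis) and Prmt5-null (y axis) iGBs, both in normalized counts per kb on log axes, coloured by complex, with a line of equality. Members listed at 0 are not drawn. Most points lie on or near the line, and Cox6a2 lies below it. Of the genes too low for testing, Cox4i2 (3.03 in control, 0.59 in Prmt5-null) also lies below it and Ndufa4l2 (1.71 and 3.21) above it.

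Values per library are given in the order Prmt5-null 10617, 10618, 10770 and 10771 and, for controls, CTRL-10650 first, then CTRL-10370, with CTRL-10596 before CTRL-10597 at the end. Complex I holds the longest list. Its 7 core subunits, which carry the flavin and iron-sulfur centres, had changes from -0.11 to 0.08 and none passed the test or had an unadjusted limma p below 0.05. The shares over all genes were 13.8% and 29.3%. Ndufs1, the largest iron-sulfur subunit, was at 6395 ± 422 in Prmt5-null and 6083 ± 410 in control iGBs (SD, n = 4), and the groups overlapped.

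Among the 29 accessory subunits of complex I, 1 passed the test (3.45%, against 13.8% of all genes). Ndufab1, the mitochondrial acyl carrier protein (chr7:122085403-122101886), was at 1079, 922, 972 and 1015 normalized counts in Prmt5-null and at 722, 753, 839 and 849.6 in control libraries. Every Prmt5-null library was above every control library, a rise of 0.33 ± 0.09 (SE) on the log2 scale with a limma adjusted p of 0.0330. The call was lost in 7 alternatives. Of the longest coding Ndufab1 transcript, 13.5% matched 3 other genes at 97% identity, so the origin of some reads is uncertain. The most abundant accessory genes did not pass: Ndufb8 was at 6970.3 ± 1366 against 5813 ± 539 and Ndufa10 at 5765 ± 456 against 5813 ± 264 (Prmt5-null against control, SD, n = 4).

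Of 8 assembly factors of complex I, 1 passed the test (12.5%, against 13.8% of all genes). Ndufaf1, which is needed to assemble the membrane arm (chr2:119655446-119662827), was at 717, 647, 822 and 696 normalized counts in Prmt5-null and at 921, 1072, 1019.6 and 959.8 in control libraries. No Prmt5-null library reached the lowest control library. It fell by 0.47 on the log2 scale (SE 0.10, limma adjusted p = 0.00869) and passed under every alternative run. The other 7 assembly factors did not pass. Among them Atp5sl (Dmac2), a factor of the distal membrane arm despite its name, had a change of 0.31 (limma adjusted p = 0.0722) and Ndufaf4 one of -0.32 (limma adjusted p = 0.0864).

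**Figure D4:**
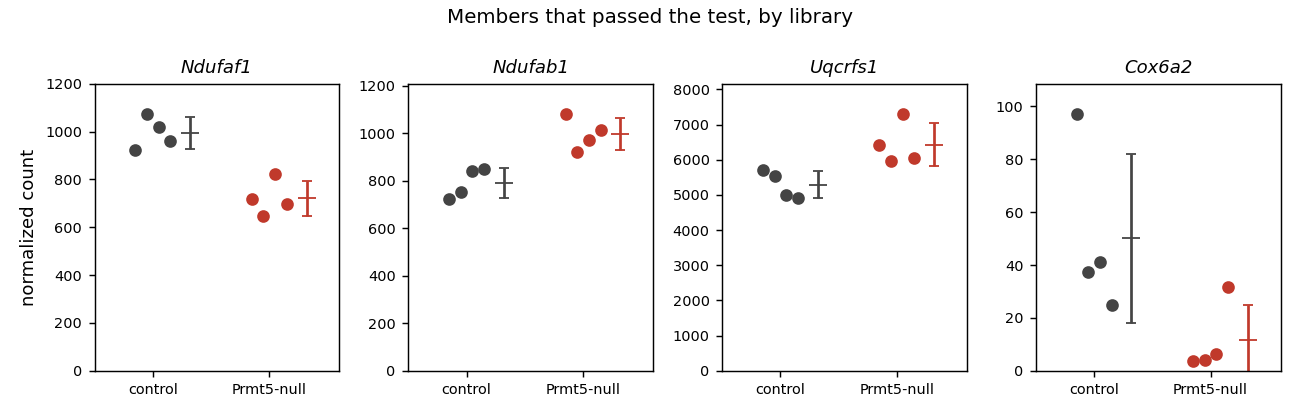
Normalized count (y axis, from 0) of the 4 members that passed the test in each control (grey) and Prmt5-null (red) library, with the mean and SD (n = 4) beside the points (the lower SD bar of Cox6a2 in Prmt5-null iGBs is cut off at 0). The genotypes do not overlap for Ndufaf1, Ndufab1 and Uqcrfs1, and overlap for Cox6a2 through Prmt5-null 10771 at 31.8.

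Complex II showed the narrowest range, with changes from -0.06 to 0.17 and none of 4 subunits past the test (0 at an unadjusted limma p below 0.05). The shares over all genes were 13.8% and 29.3%. Sdha, the flavoprotein that oxidizes succinate, was at 10062 ± 356 normalized counts in Prmt5-null and 10249 ± 156 in control iGBs (SD, n = 4). Sdhd, a membrane anchor, was at 7036 ± 798 against 6239 ± 361. The 95% intervals of all 4 lay within 1.5-fold.

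In complex III, 1 of 8 subunits passed the test (12.5%, against 13.8% of all genes). Uqcrfs1, the Rieske iron-sulfur protein that takes electrons from ubiquinol (chr13:30540308-30545362), was at 6408, 5966, 7288 and 6054 normalized counts in Prmt5-null and at 5714, 5530.3, 4993 and 4924 in control libraries. The groups did not overlap, and it rose by 0.28 ± 0.09 (SE) on the log2 scale with a limma adjusted p of 0.0487. That call was lost in 11 alternatives, and it held in 7 of 18 placements of a term for experiment. The core proteins Uqcrc1 and Uqcrc2 had changes of 0.07 and 0.04, and the hinge protein Uqcrh and Uqcr10 of 0.07 and 0.18, with none past the test.

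Complex IV held the only member past 1.5-fold. Cox6a2, the isoform of subunit VIa typical of heart and skeletal muscle (chr7:128205435-128206387), was at 3.70, 4.08, 6.49 and 31.8 normalized counts in Prmt5-null and at 96.9, 37.4, 41.2 and 24.9 in control libraries. Prmt5-null 10771 was above the lowest control library, so the groups overlapped. It fell by 2.36 on the log2 scale (SE 0.60, limma adjusted p = 0.0224). That value rested on 247 reads in 8 libraries, and the two-sided exact permutation test gave p = 0.0571. The call was lost in 5 alternatives. The isoform of most tissues, Cox6a1, had a change of -0.10 and did not pass.

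The 11 complex IV subunits of most tissues had a median change of 0.11, and none passed the test (1, Cox8a, at an unadjusted limma p below 0.05). The shares over all genes were 13.8% and 29.3%. Cox4i1, the regulatory subunit that binds ATP, was at 20061, 18059, 26331 and 19080.5 normalized counts in Prmt5-null and at 17489, 19148, 17371 and 16007 in control libraries. Its highest value was again in Prmt5-null 10770, and the groups overlapped. Cox8a was at 8153 ± 688 against 7080.1 ± 433. Cox7a2l, listed here as a factor for supercomplexes of complexes III and IV, was at 10494 ± 1901 against 8168 ± 885 (limma adjusted p = 0.0716). Of the tissue isoforms, Cox6b2, known from testis, was at 43.9 ± 20.0 against 42.5 ± 15.4. Cox4i2, Cox7b2, Cox8b, Cox8c and Ndufa4l2 were below the limit for testing, with 0 reads of Cox7b2, Cox8b and Cox8c in every library.

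None of the 17 genes of complex V passed the test, and 3 had an unadjusted limma p below 0.05, 1 higher and 2 lower. The shares over all genes were 13.8% and 29.3%. The F1 subunit Atp5b, where ATP is made, was at 78828, 65992, 94629 and 72103 normalized counts in Prmt5-null and at 75624, 75306, 69461 and 67759 in control libraries. Atp5a1 was at 59289 ± 6976 against 57471 ± 2159. In the stalk and membrane part, Atp5f1 had a change of 0.08 and Atp5g3, a gene of the rotor ring, one of -0.14. Atp5s, a coupling factor, had a change of -0.37 with a limma adjusted p of 0.276, and Atp5l2, a retrogene copy, one of 0.17.

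Genes that serve the respiratory chain without belonging to the list were called about as often as the background. Of 101 such genes in 8 lists, 13 passed the test (12.9%, against 13.8% of all genes). Of these, 3 were higher and 10 lower, beside 6.51% of all genes higher and 7.33% lower. Of 22 complex IV assembly factors 4 were lower (18.2%, against 7.33% of all genes) and none higher (6.51% of all genes). Surf1, which acts early in building the catalytic core, was at 780, 602, 837 and 642 normalized counts in Prmt5-null and at 1202, 1377, 1353 and 1276 in control libraries, a fall of 0.87 on the log2 scale (limma adjusted p = 0.000531). Cox18, an insertase for subunit 2, fell by 0.38 and Cox16 by 0.36. Of 9 complex I factors outside the rule 2 passed (22.2%, against 13.8% of all genes), with Timmdc1 down by 0.55 and Tmem126b at a rise of 0.34. Of 6 complex III genes outside the rule 1 passed (16.7%), where Bcs1l, which inserts the Rieske protein into complex III, fell by 0.35.

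Among 18 genes of the electron carriers, enzymes of coenzyme Q synthesis moved in both directions. Pdss1, which makes the side chain, fell by 0.66 and Coq2, which attaches it, by 0.38, while Coq6, a ring hydroxylase, rose by 0.64 on the log2 scale. Of 20 genes of the citrate cycle and pyruvate dehydrogenase, 2 passed (10%), where Idh2 fell by 0.45 and Idh3g by 0.34. Of 20 regulators of these genes and of mitochondrial DNA, 1 passed (5%), where Polg, the mitochondrial DNA polymerase, rose by 0.33. None of the tested assembly genes of complex II (2 genes) or complex V (4 genes) passed in limma, edgeR or DESeq2, with 1 and 0 of them at an unadjusted limma p below 0.05.

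Splicing events were deposited for 4 of the 85 members with a mean above 50 (4.71%), against 11.4% of 13300 genes. The deposited lists hold only events whose inclusion differed by at least 0.1 between genotypes, so the differences below chose the events and are given with no test. Inclusion is the fraction of transcripts that hold the exon or the longer exon form, as the authors computed it, in 4 values per genotype that are not tied to libraries and are given from low to high.

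The lists number their 2 sets of libraries without naming them, and set 1 was taken as control and set 2 as Prmt5-null from how the study describes its differences. The direction of each event rests on that assignment. With it, all 4 events had lower median inclusion in Prmt5-null iGBs. The Ndufs1 exon (chr1:63172154-63172257), which lies in the 5′ untranslated part of an annotated coding transcript, was included at 0.311, 0.312, 0.330 and 0.338 in control and at 0.128, 0.138, 0.142 and 0.148 in Prmt5-null iGBs. The groups stood well apart over 1591 reads, while the gene's level changed by 0.07 on the log2 scale. The coding Ndufs7 exon printed above, of 84 bases and so a whole number of codons, was at 0.846, 0.875, 0.880 and 0.942 in control and at 0.714, 0.749, 0.789 and 0.839 in Prmt5-null iGBs. Its groups met closely without overlapping, over 2676 reads.

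The other events of members rested on fewer reads. The Atp5l exon, of 161 bases and so not a whole number of codons, was at 0.460, 0.589, 0.607 and 0.853 in control and at 0.292, 0.341, 0.403 and 0.462 in Prmt5-null iGBs, with overlap. It rested on 597 reads. As 72.2% of the longest coding Atp5l transcript matched other genes at 97% identity, the origin of these reads is uncertain. For Ndufv1, the flavin subunit, the upstream acceptor adding GACCCCACAG was used at 0.764, 0.902, 1.00 and 1.00 in control and at 0.502, 0.504, 0.514 and 0.671 in Prmt5-null iGBs. That event counts 109 reads in all, from transcripts that join the exon to the second exon upstream, and gene levels overlapped (change -0.11). Of 100 genes of the pathway lists with a mean above 50, 13 had a deposited event (13.0%, against 11.4% of all genes). Among the regulators, an exon of Nrf1, a factor that activates many of these genes, was included at 0.125 to 0.233 in control and 0.009 to 0.092 in Prmt5-null iGBs. The longer exon form of Hcfc1 went the other way, at 0.377 to 0.481 in control and 0.499 to 0.594 in Prmt5-null iGBs. Events were also deposited for Gabpb1, Gabpb2, Polg, Polg2, Tfb2m and Yy1. Those of Polg2, Tfb2m and Yy1 rested on 14, 30 and 50 reads, with overlap between the genotypes.

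**Figure D5:**
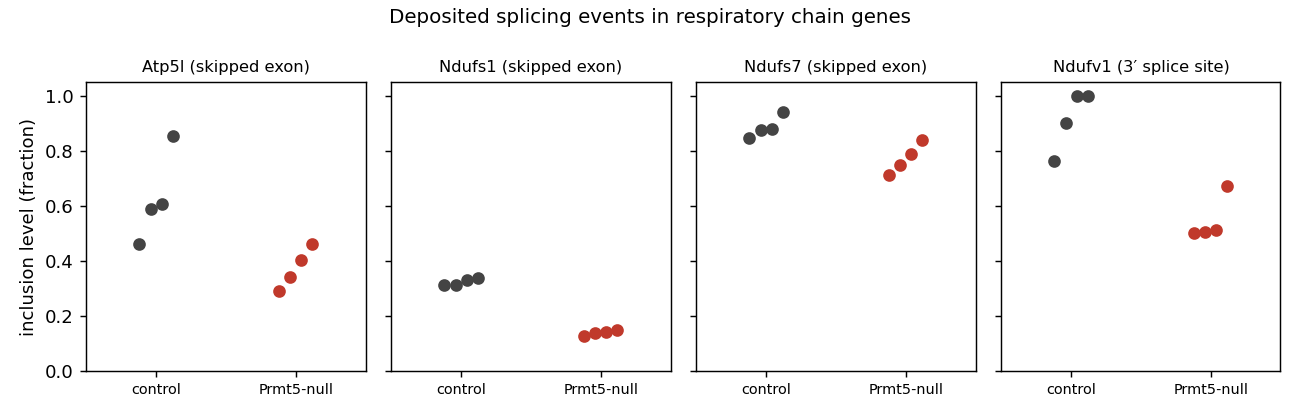
Inclusion level (y axis, fraction) of the 4 deposited events in respiratory chain genes, with 4 values for control (grey) and 4 for Prmt5-null (red) iGBs. The values of Ndufs1, Ndufs7 and Ndufv1 do not overlap between genotypes, and those of Atp5l do.

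Promoters were compared by their letters, a feature the rule did not use. RefSeq promoters (250 bases before to 50 after the start, GRCm38.p6) matched 76 of the 93 members. Each motif was searched on both strands, and motifs may overlap. The NRF1 motif GCGCANGCG was in 22 of 76 member promoters (28.9%), against 7.03% of promoters of 27025 genes and 15.2% of those of 9742 tested genes matched by symbol. The YY1 motif AAGATGGCG was in 8 (10.5%), against 1.64% and 3.53%. The ETS and GABP motif CCGGAAG was in 17 (22.4%), against 9.93% and 20.1%, and the SP1 motif GGGCGG in 34 (44.7%), against 38.2% and 68.0%. A match describes letters only, and binding was not measured.

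The promoter stretches of the members that passed the test and had a RefSeq entry are shown to set their differing letters side by side. Each is 120 bases upstream of the outer of the RefSeq and GENCODE starts, with any of the 4 motifs in capitals.
Ndufaf1 (chr2:119662835-119662954, minus strand): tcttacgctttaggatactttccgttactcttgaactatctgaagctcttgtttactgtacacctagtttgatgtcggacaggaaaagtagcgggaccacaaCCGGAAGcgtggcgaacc
Ndufab1 (chr7:122101887-122102006, minus strand): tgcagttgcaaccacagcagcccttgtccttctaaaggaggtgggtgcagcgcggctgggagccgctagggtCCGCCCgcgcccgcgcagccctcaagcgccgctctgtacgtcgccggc
Uqcrfs1 (chr13:30545363-30545482, minus strand): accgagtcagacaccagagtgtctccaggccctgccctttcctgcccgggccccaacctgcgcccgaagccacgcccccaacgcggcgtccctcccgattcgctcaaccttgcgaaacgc
In these stretches Ndufaf1 held the ETS and GABP motif, Ndufab1 held the SP1 motif on the other strand, and the Uqcrfs1 stretch held none of the 4.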

How the data were processed

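Total RNA of 8 iGB cultures was sequenced by the authors, who trimmed reads with Trimmomatic 0.32, aligned them with STAR 2.3.0e to GRCm38 (mm10) and counted exonic reads per Ensembl gene with featureCounts 1.4.4. The deposited signal is each count divided by the library's DESeq2 1.14.1 size factor. All values were whole multiples of 1 read (tolerance 1e-06), which gave reads per library. The strand setting of counting is not given in the sources used here. Deposited rMATS lists hold inclusion levels as a fraction and counts of junction reads. Their p-values, FDR values and differences were not used, apart from the smallest difference.

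Here log2(value + 1) of 16250 genes with a mean of at least 10 was tested with limma 3.58.1 (trended empirical Bayes, R 4.3.3), with Benjamini-Hochberg adjustment over all genes, after a test on simulated data. Alternatives used edgeR 4.0.16 and DESeq2 1.42.0 on recovered reads, other scalings and filters, and leaving out libraries. Exonic lengths came from GENCODE M21 and copies from blastn 2.17.0 (97% identity over 100 bases). Named genes were Prmt5, members that passed with 1.5-fold, the 3 largest changes that passed and the 2 most abundant genes per complex and role, members with splicing events, and up to 3 genes per pathway list. Atp5sl, Cox6a1, the members named in the copy check and those called in an alternative were named after their values were seen. The set of members and the lists were chosen with earlier results of these data known. The values of 1 member are not reported here, and counts and medians include it.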

Additional observations from a re-analysis of the deposited data

Results flagged for a closer look

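Of 70 groups of 4 libraries checked for a value far from the rest, 5 held one, where chance gives about 1 in 20. In Prmt5-null 10770, Atp5f1 was at 22176 (17075 to 17919 in the other Prmt5-null libraries), Atp5l2 at 404 (249.98 to 276) and Uqcrh at 8898 (6072 to 6522) normalized counts. In Prmt5-null 10771, Cox6a2 was at 31.8 (3.70 to 6.49). In the control library CTRL-10597, Ndufs7 was at 1695 (1934 to 1978).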

How the results depend on the processing

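Ndufaf1 passed in every alternative run (log2 change -0.53 to -0.42, highest adjusted p 0.0415 over limma, edgeR and DESeq2). Uqcrfs1 lost its call in 11, Ndufab1 in 7 and Cox6a2 in 5 of theirs, and the changes of these 4 genes kept their sign. Some changes of genes that did not pass crossed 0, such as that of Uqcrc2 (-0.08 to 0.10). Against 4 members called (2 higher, 2 lower, 1 past 1.5-fold), requiring a mean above 50 left 1 lower and 0 past 1.5-fold, and no filter or scaling by total reads each left 1 higher. Limma without trend called 2 (1 higher, 1 lower, 0 past 1.5-fold), DESeq2 7 (5 higher), an adjusted p below 0.01 called 1 (0 higher, 1 lower, 0 past 1.5-fold) and below 0.1 called 10 (6 higher, 4 lower). Over all genes DESeq2 called 18.9%, limma without trend 10.98%, the limit of 0.01 gave 5.98% and that of 0.1 gave 20.8%. Leaving out 1 library gave 1 to 6 members (0 to 2 higher, 1 to 5 lower, 0 to 1 past 1.5-fold): 1 without Prmt5-null 10617 or the control library CTRL-10650, 2 without Prmt5-null 10771, CTRL-10370 or CTRL-10596, 3 without CTRL-10597, 5 without Prmt5-null 10618 and 6 without Prmt5-null 10770, against 8.46% to 14.6% of all genes. The genes called in the pathway lists numbered 13, and 5 to 14 when a library was left out. Without Prmt5-null 10617 and CTRL-10650, the library of each genotype with the highest fibroblast sum, chosen after seeing the data, 1 member (0 higher, 1 lower, 0 past 1.5-fold) and 4 pathway genes were called, against 6.71% of all genes. The cause of these moves was not tested, beyond the fewer libraries or the stricter limits themselves. The change of Cox6a2 was -1.52 to -3.00.

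The study ran 2 experiments that the labels do not tie to libraries. A term for experiment was fitted in 18 placements, each with 2 libraries of each genotype per experiment. The labels do not give this split, and uneven splits were not fitted. These fits called 2 to 9 members (0 to 6 higher), against 10.7% to 18.5% of all genes. Ndufaf1 and Cox6a2 passed in all 18, Ndufab1 in 16 and Uqcrfs1 in 7, and of the named genes not called otherwise Cox7a2l passed in 3, Atp5sl in 2 and Cox8a and Ndufaf4 in 1 each. No paired analysis was possible because the groups share no replicate numbers. In the 250 bases before the start alone, the YY1 motif was in 2 member promoters (2.63%, against 1.41% of tested genes). The NRF1 motif was in 15 there (19.7%, against 12.6%). Any of the NRF1, ETS and GABP or YY1 motifs was in 25 (32.9%, against 26.7% of tested genes). In the longer window the YY1 motif was in 8 and any of the 3 in 39 (51.3%, against 33.8%), so the contrast was smaller in the shorter window. Inclusion from junction reads alone moved no event by more than the spread. With 4 libraries per genotype, smaller changes and those of genes near the limit of 10, such as Cox6a2, are poorly resolved.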
